A study of Mus musculus with 6 samples.

Results

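The collagen and laminin matrix genes of the mouse lateral ganglionic eminence (LGE) were examined in 53 of the 29659 genes of the deposited count table. They are the protein-coding genes named as a collagen chain (Col, a number, a, a number) or as a laminin alpha, beta or gamma chain (Lama, Lamb or Lamc and a number) with at least 1 count in 4 or more of the 6 libraries. The name alone matched 55 genes, and Col10a1 and Col13a1 did not meet the count rule. The 53 genes comprised 11 fibrillar collagens, 6 basement membrane collagens, 11 laminins and 25 other collagens. The rule itself uses names and the presence of counts, but it was chosen with earlier results of these data known.

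The LGE is the embryonic forebrain territory that generates the projection neurons of the striatum, and its RNA was sequenced at embryonic day 16.5 to compare mice with a conditional deletion of Zfhx3, which encodes a transcription factor with zinc fingers and homeodomains, with controls. Mice of the Zfhx3-CKO group (3 libraries) had the genotype Dlx5/6-Cre; Zfhx3F/F, in which Cre recombinase recombines floxed Zfhx3 alleles, and control mice (3 libraries) had Dlx5/6-Cre alone. Both groups were C57BL/6 and both carried the Cre transgene, whose Dlx5/6 regulatory element is active in neurons and progenitors of the ganglionic eminences, so vascular, meningeal and microglial cells of the dissected tissue are not cells in which it is known to act. The labels do not say whether the libraries of a group are from different animals. The p-values therefore describe only how far libraries differ, and that spread may be technical.

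Collagens and laminins are secreted as trimers of chains and laid down outside the cell. Type IV collagens and laminins are the 2 polymers on which basement membranes are built, and in the embryonic brain such membranes lie under the pial surface, where radial glial endfeet attach, and around blood vessels. Fibrillar collagens form the load-bearing fibres of connective tissue, which in the brain are made mainly by meningeal and perivascular cells, while the other collagens decorate fibrils, form beaded filaments or networks, or sit in cell membranes.

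Library totals were 18960574 to 20311799 counts in Zfhx3-CKO and 15938590 to 16753355 in control. The targeted gene gave 98.8, 87.4 and 99.4 CPM (counts scaled by library size) in Zfhx3-CKO 1, 2 and 3, against 134, 135 and 101 CPM in control 1, 2 and 3, a log2 fold change of -0.37 ± 0.12 (SE) that did not pass the threshold (edgeR's quasi-likelihood test, Benjamini-Hochberg adjusted p = 0.091). All 15 listed LGE markers were expressed, with summed levels of 4616 to 4843 CPM in Zfhx3-CKO and 5134 to 5541 CPM in control. Sex split the libraries exactly as genotype did, with 55947 to 59631 Xist counts in Zfhx3-CKO libraries and 5 to 9 in control libraries. The effects of sex and genotype therefore cannot be told apart for any gene, on the X chromosome or elsewhere. Of the 53 collagen and laminin genes, only Col4a5 and Col4a6 are X-linked. Listed markers of cortical excitatory neurons summed to 164, 43.5 and 262 CPM in Zfhx3-CKO 1, 2 and 3, against 42.5 to 48.2 CPM in control, which sets Zfhx3-CKO 1 and 3 apart. In bulk tissue, fewer cells of a type and less RNA per cell cannot be told apart. With 3 libraries against 3, an exact permutation test of a single gene cannot go below p = 0.1, so the calls rest on the model fitted to all genes.

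Transcript levels spanned a wide range, which is given here in FPKM, the authors' unit scaled by gene length and depth, averaged over the 6 libraries. Only 3 genes reached 10 FPKM, namely Col4a1 at 25.7, Col4a2 at 18.0 and the laminin gamma chain Lamc1 at 11 FPKM. A further 21 genes lay between 1 and 10 FPKM and 29 lay under 1. Col4a1 and Col4a2 together held 29.2 to 35.1% of the summed FPKM of the 53 genes in Zfhx3-CKO and 32.8 to 33.0% in control. Next in level came the laminin beta chain Lamb2 at 9.46 FPKM, Col9a3 at 7.96 FPKM and Col22a1 at 6.13 FPKM. The highest fibrillar collagens were Col5a2 at 4.70, Col2a1 at 4.0 and Col11a1 at 3.13 FPKM, and the type I and III chains that dominate connective tissue were all under 1 FPKM (0.521 for Col1a1, 0.832 for Col1a2 and 0.925 for Col3a1).

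**Figure D1:**
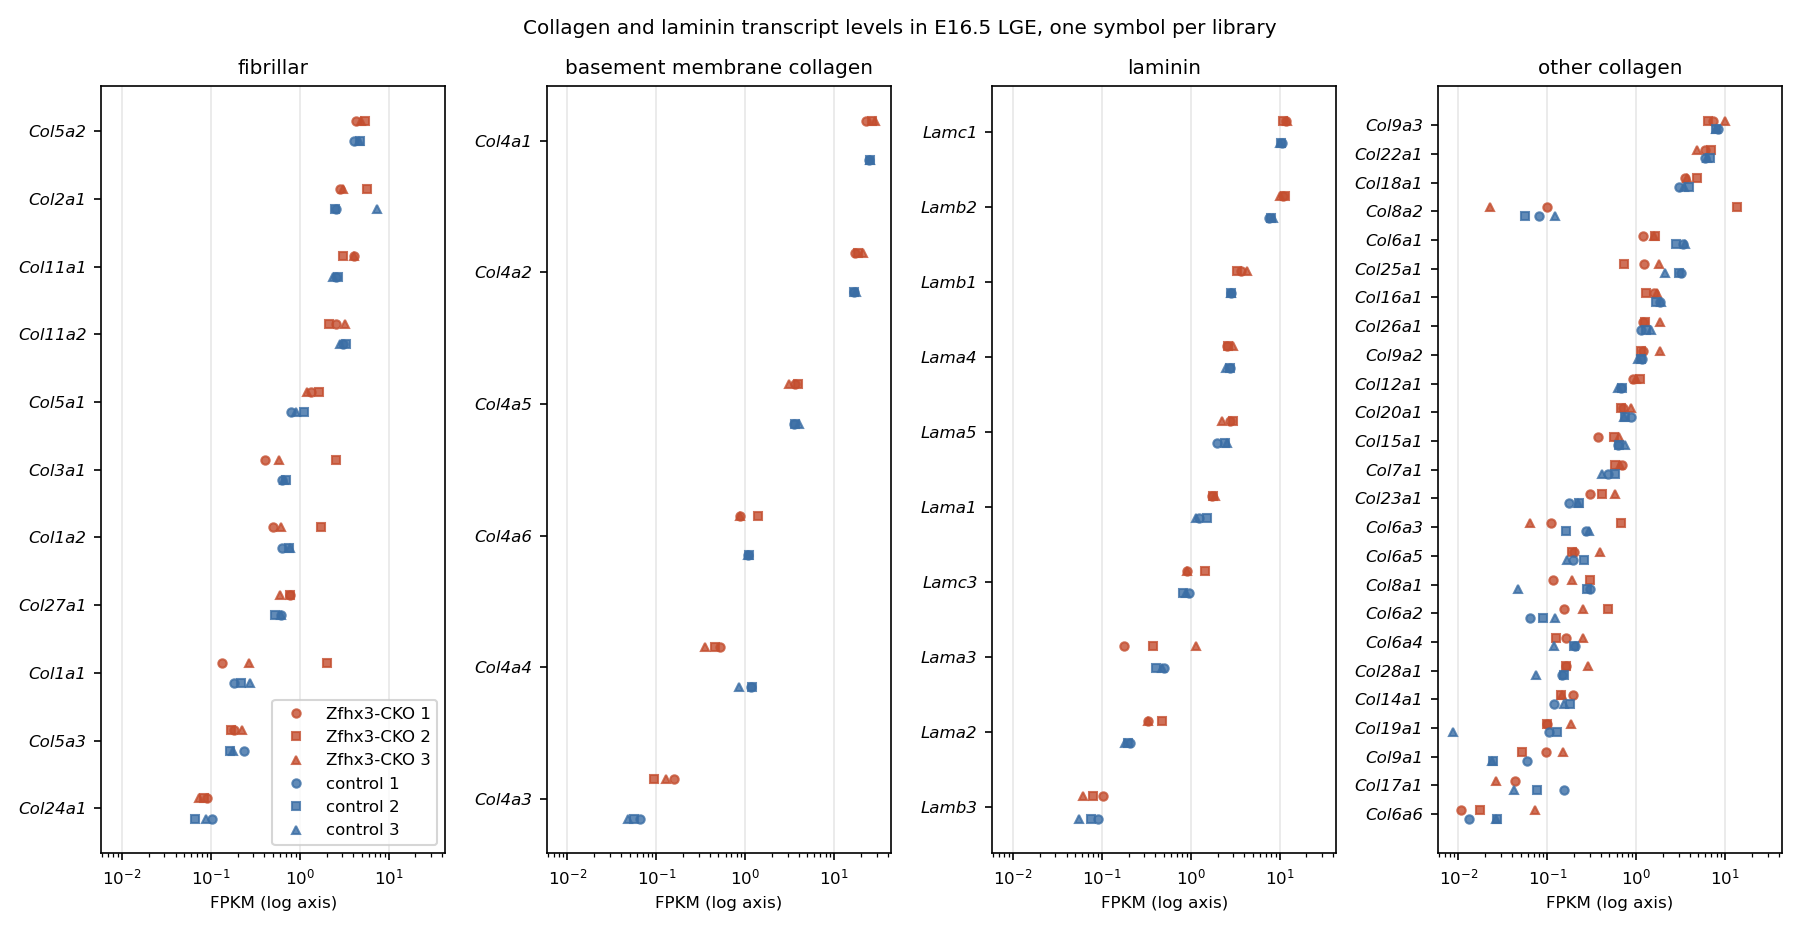
FPKM of the collagen and laminin genes reported here on a log axis, by class and ordered by mean level, with 1 symbol per library (Zfhx3-CKO above control for each gene). A value of 0, which occurs for Col17a1 in Zfhx3-CKO 2, is not drawn. Col4a1 and Col4a2 stand highest, and Col8a2 is high in Zfhx3-CKO 2 alone.

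Of the 53 genes, 48 passed the low-count filter and were tested. Lamb3, Col17a1, Col6a6, Col8a2 and Col9a1 were not. In the test across all 16551 genes, 7.36% were called at an adjusted p under 0.05, 3.87% as higher and 3.49% as lower in Zfhx3-CKO. Of the 48 collagen and laminin genes, 7 (14.6%) were called. Lamb2, Lama2, Col11a1 and Col12a1 rose, and 3 fell, Col4a4 and Col6a1 among them. A further 8 had an unadjusted p under 0.05, 7 with a positive and 1 with a negative difference, which brings the genes at that level to 11 positive and 4 negative of 48, where 13.5% and 12.1% of all genes tested (25.6% in either direction) had such a p.

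The fitted difference was positive for 32 of the 48, against 50.1% of all genes tested, and the median log2 fold change was 0.19, against 0.00 over all genes tested. All 3 Zfhx3-CKO libraries lay above all 3 control libraries for 12 genes (25% of the 48, against 15.5% of all genes tested), below them for 4 (against 15.9% of all genes tested), and the groups overlapped for 32. The median log2 fold change was 0.29 for the 10 laminins tested, 0.30 for the 11 fibrillar collagens, -0.00 for the 6 basement membrane collagens and 0.16 for the 21 other collagens. Called genes are those with an adjusted p under 0.05 from edgeR's quasi-likelihood test throughout. Without control 1 none of the 49 genes then tested was called by edgeR (10 higher and 4 lower at an unadjusted p under 0.05), and DESeq2 on all libraries called 7 higher and 4 lower of the 48, where it called 6.13% and 4.79% of all genes tested.

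**Figure D2:**
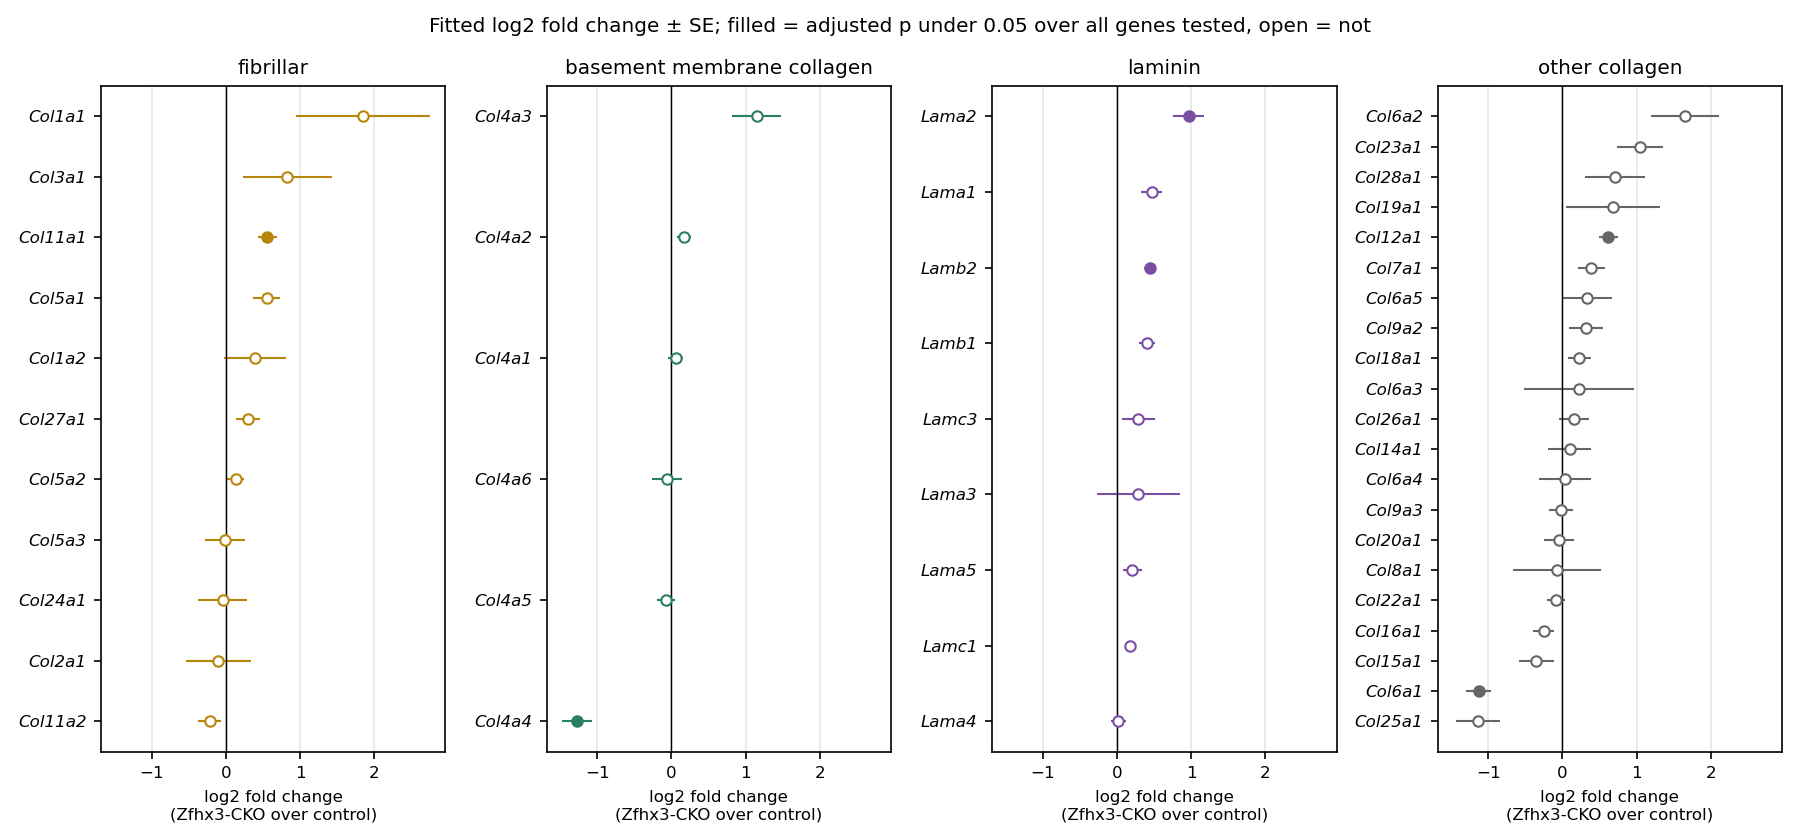
Fitted log2 fold change (Zfhx3-CKO over control, x axis) with its standard error for the tested genes reported here, by class, with filled points for called genes. The differences of the called genes drawn run from -1.27 for Col4a4 to 0.97 for Lama2, and the widest error bar belongs to Col1a1, a gene led by 1 library.

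Of the 10 laminins tested, Lamb2 and Lama2 rose, and the summed laminin level was 296, 302 and 314 CPM in Zfhx3-CKO 1, 2 and 3, against 255.5, 259 and 251 CPM in control 1, 2 and 3, without overlap. Lamb2, a beta chain of vascular, pial and synaptic basement membranes, had 66.5, 71.0 and 62.1 CPM in Zfhx3-CKO 1, 2 and 3, against 46.1, 48.4 and 51.4 CPM in control 1, 2 and 3. The groups did not overlap, and the log2 fold change was 0.45 ± 0.08 (SE; adjusted p = 0.015). Lama2, the alpha chain whose loss causes a congenital muscular dystrophy and which in brain is made by vessel-associated and glial cells, had 5.39, 7.89 and 5.49 CPM in Zfhx3-CKO 1, 2 and 3, against 3.41, 3.22 and 2.93 CPM in control 1, 2 and 3. The groups stood apart, with Zfhx3-CKO 2 highest, and the log2 fold change was 0.97 ± 0.21 (adjusted p = 0.03).

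The alpha chain Lama3 and the beta chain Lamb3, known from epithelial attachment sites, were not called. Lama3 had 1.91, 4.02 and 12.4 CPM in Zfhx3-CKO 1, 2 and 3, against 5.44, 4.42 and 5.03 CPM in control 1, 2 and 3, so that Zfhx3-CKO libraries lay on both sides of the controls. The log2 fold change of Lama3 was 0.29 ± 0.56 (adjusted p = 0.785), and Lamb3 stayed at 0.410 to 0.686 CPM in Zfhx3-CKO and 0.359 to 0.598 CPM in control, too low to be tested.

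Lamc1, Lamb1 and Lama1 were not called by edgeR. Lamc1, the gamma chain of nearly all laminins, had 98.0, 91.5 and 100.6 CPM in Zfhx3-CKO 1, 2 and 3, against 88.5, 85.6 and 82.6 CPM in control 1, 2 and 3. The groups did not overlap, yet the log2 fold change of 0.18 ± 0.07 did not pass (adjusted p = 0.147). Lamb1, the beta chain of the embryonic laminins, had 36.3, 33.0 and 42.5 CPM in Zfhx3-CKO 1, 2 and 3, against 28.0, 28.5 and 27.6 CPM in control 1, 2 and 3. Its log2 fold change was 0.41 ± 0.11 (adjusted p = 0.0551). Lama1, the alpha chain of early embryonic and pial basement membranes, had 16.4, 16.8 and 18.1 CPM in Zfhx3-CKO 1, 2 and 3, against 11.7, 14.5 and 11 CPM in control 1, 2 and 3 (log2 fold change 0.47 ± 0.14, adjusted p = 0.0741). For both Lamb1 and Lama1 all Zfhx3-CKO libraries were above all control libraries. DESeq2 called both as higher (adjusted p = 0.0217 for Lamb1 and 0.0417 for Lama1), and edgeR called Lamb1 without Zfhx3-CKO 2 (0.0235) and without the low-count filter (0.032). With any other single library left out edgeR did not call Lamb1 (0.0599 to 0.184), and it called Lama1 in no such fit (0.0882 to 0.233). With Zfhx3-CKO 2 as the only mutant library the log2 fold change of Lamb1 was 0.24. The part of the cortical signal of Zfhx3-CKO 1 and 3 in Lamb1 was not tested. The alpha chains of vascular basement membranes, Lama4 (log2 fold change 0.02) and Lama5 (0.21), and the gamma chain Lamc3 (0.29) did not pass the test, with adjusted p of 0.908, 0.369 and 0.457.

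The calls of Lamb2 and Lama2 did not hold in every fit with 1 library left out. Over the whole table, 640 genes called higher became 221 without Zfhx3-CKO 1, 158 without control 1, 156 without control 2 and 415 without control 3. Lamb2 was lost without Zfhx3-CKO 1 (adjusted p = 0.0649), control 1 (0.0842) or control 2 (0.0805). Lama2 was lost without Zfhx3-CKO 1 (0.0631), control 1 (0.108), control 2 (0.116) or control 3 (0.0877). Both stayed higher in Zfhx3-CKO in the fits that lost them, with log2 fold changes of 0.42 to 0.46 for Lamb2 and 0.91 to 1.07 for Lama2.

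**Figure D3:**
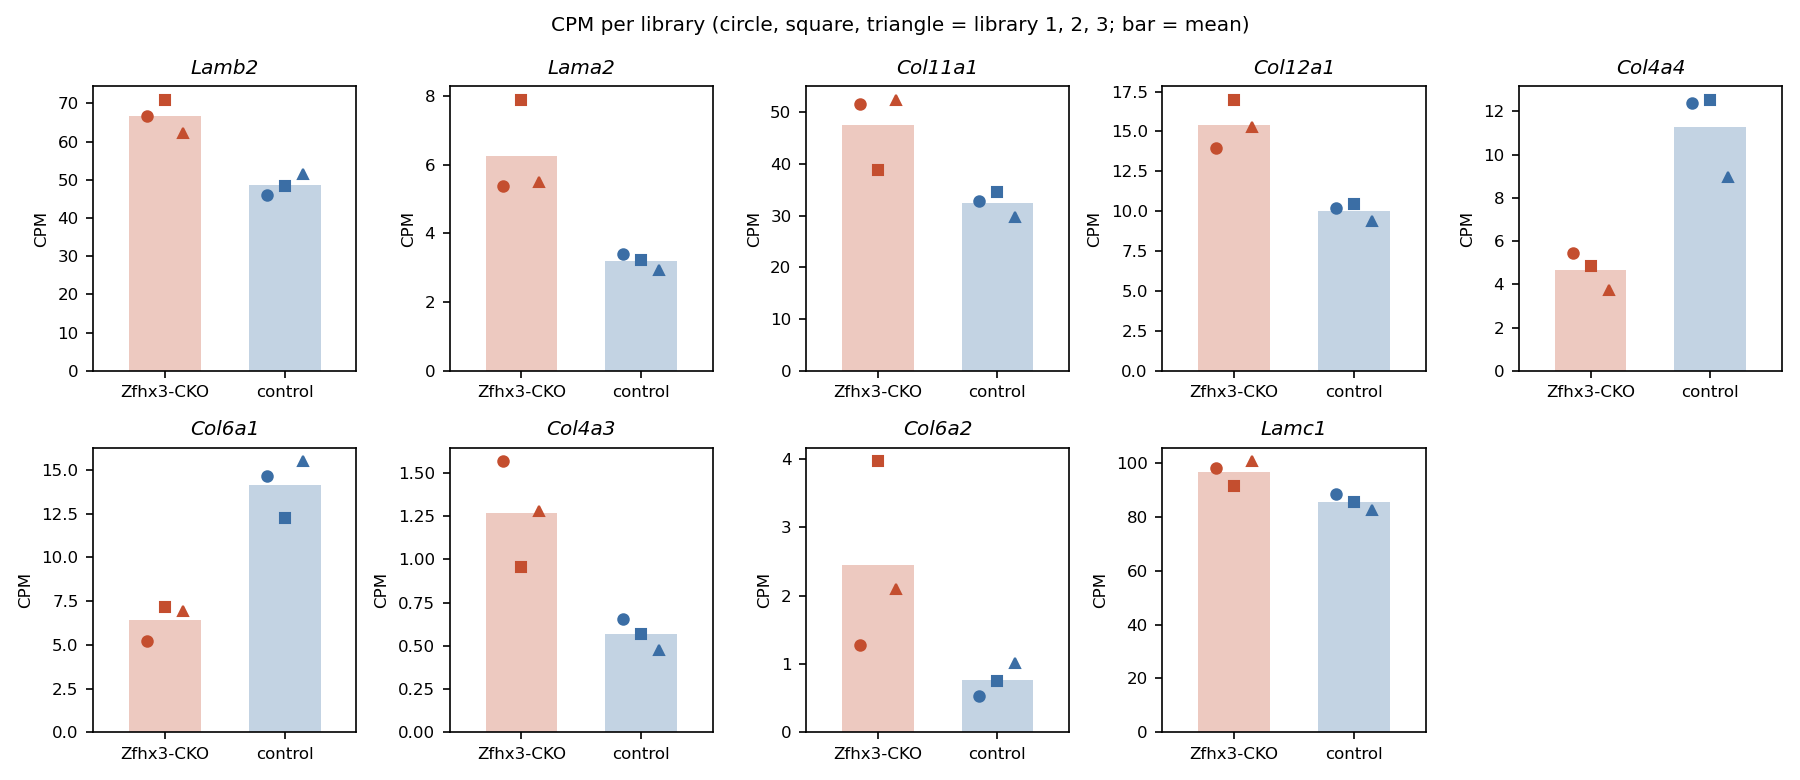
CPM per library for the called genes Lamb2, Lama2, Col11a1, Col12a1, Col4a4 and Col6a1, for Col4a3 and Col6a2 as the neighbours of called genes, and for Lamc1, with Zfhx3-CKO left of control. Bars are group means and symbols mark libraries 1, 2 and 3, and in every panel the groups do not overlap.

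The type IV collagens form 3 gene pairs, each with its genes transcribed away from each other, and of the 6 genes only Col4a4 was called. Col4a1 and Col4a2, which encode the main network of all basement membranes, lie head to head on chromosome 8 (11198423 to 11312826 on the minus strand and 11312805 to 11449287 on the plus strand) with 22 bases of overlap. Col4a4 and Col4a3, whose chains join Col4a5 in the kidney filter, lie head to head on chromosome 1 (82448423 to 82586849, minus, and 82586921 to 82722059, plus) with 71 bases between them. Col4a6 and Col4a5 lie head to head on the X chromosome with 1308 bases between them. The start regions of 2 pairs are shown because Col4a4 is the called gene of the type and shares its start region with Col4a3, and Col4a1 and Col4a2 are the abundant pair. Each sequence runs from 250 bases before to 50 bases after the RefSeq start on the build GRCm38.p6, read on the gene's own strand, and each window also holds the start of the gene on the other strand. Capitals mark motif matches on either strand. The CCAAT box was searched as the letters CCAAT, the GC box was searched as the letters GGGCGG, and the TATA box was searched as the letters TATAAA, and matches of different motifs did not overlap in the windows shown.
Col4a4 (chr1:82586800-82587099, minus strand): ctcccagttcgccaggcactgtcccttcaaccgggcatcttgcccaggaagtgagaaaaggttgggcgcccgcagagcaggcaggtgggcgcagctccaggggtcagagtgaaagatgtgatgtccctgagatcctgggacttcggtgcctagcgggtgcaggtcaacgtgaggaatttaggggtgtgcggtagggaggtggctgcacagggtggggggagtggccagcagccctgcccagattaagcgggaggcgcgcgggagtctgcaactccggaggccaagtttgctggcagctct
Col4a1 (chr8:11312777-11313076, minus strand): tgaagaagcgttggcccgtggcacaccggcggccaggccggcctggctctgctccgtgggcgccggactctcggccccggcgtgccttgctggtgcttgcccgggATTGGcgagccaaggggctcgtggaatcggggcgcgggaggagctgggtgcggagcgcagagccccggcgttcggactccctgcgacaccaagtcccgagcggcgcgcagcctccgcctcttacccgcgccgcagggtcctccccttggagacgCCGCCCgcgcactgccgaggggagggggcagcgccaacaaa
The Col4a4 window held none of the 3 motifs, with a GC content of 63.3%, and the Col4a1 window held 1 CCAAT and 1 GC box on the reverse strand, with a GC content of 74%. RefSeq gave windows for 38 of the 53 genes, and Col4a3 was not among them. CCAAT was found in 13 of the 38 (34.2%), against 37.9% of 27025 gene promoters of the same length, GGGCGG in 25 (65.8%, against 35.9%) and TATAAA in 3 (7.89%, against 14.2%). A match is a run of letters and not a shown binding site.

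Col4a4 had 5.44, 4.87 and 3.74 CPM in Zfhx3-CKO 1, 2 and 3, against 12.4, 12.6 and 8.98 CPM in control 1, 2 and 3, which corresponds to 111, 92 and 73 counts against 207, 199 and 150. It fell without overlap of the groups, with a log2 fold change of -1.27 ± 0.20 (adjusted p = 0.00924), the largest fall among the 48 genes tested. Its neighbour Col4a3 lay the other way, with 1.57, 0.953 and 1.28 CPM in Zfhx3-CKO 1, 2 and 3, against 0.657, 0.568 and 0.479 CPM in control 1, 2 and 3. Again no libraries overlapped, but these rest on 18 to 32 counts in Zfhx3-CKO and 8 to 11 in control, and the log2 fold change of 1.15 ± 0.33 did not pass (adjusted p = 0.0685). Per length, Col4a4 stood 2.74 to 4.80 times above Col4a3 within Zfhx3-CKO libraries, against 17.6 to 20.8 times within control libraries. Since the kit does not mark strand, reads across the gap between the 2 genes could not be assigned by strand. The Col4a4 call was lost without control 1 (adjusted p = 0.0644) or control 2 (0.0587).

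Col4a1 had 168, 201 and 219 CPM in Zfhx3-CKO 1, 2 and 3, against 185, 192 and 189 CPM in control 1, 2 and 3. Col4a2 had 113, 125 and 142 CPM in Zfhx3-CKO 1, 2 and 3, against 109.7, 112 and 116 CPM in control 1, 2 and 3. The groups overlapped for both, Zfhx3-CKO 3 was highest for both, and neither passed (log2 fold changes 0.06 ± 0.10 and 0.17 ± 0.09, adjusted p = 0.758 and 0.26). Their FPKM ratio was 1.31 to 1.43 in Zfhx3-CKO and 1.44 to 1.52 in control. The X-linked Col4a5 had 24.4, 26.6 and 21.0 CPM in Zfhx3-CKO 1, 2 and 3, against 24.0, 24.7 and 27.0 CPM in control 1, 2 and 3, with overlap (log2 fold change -0.07 ± 0.12, adjusted p = 0.751). Its partner Col4a6 likewise did not pass (log2 fold change -0.06 ± 0.20, adjusted p = 0.878).

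Among the 11 fibrillar collagens 1 was called. Col11a1, a minor fibrillar chain that in cartilage starts thin fibrils, had 51.6, 38.9 and 52.4 CPM in Zfhx3-CKO 1, 2 and 3, against 32.9, 34.6 and 29.7 CPM in control 1, 2 and 3. It rose without overlap of the groups, with a log2 fold change of 0.56 ± 0.13 (adjusted p = 0.037). Zfhx3-CKO 1 and 3, the libraries with the high cortical neuron markers, were its highest, and with Zfhx3-CKO 2 as the only mutant library the log2 fold change was 0.26 (adjusted p = 0.209). The part of the cortical signal in this rise was not tested. The call was also lost without Zfhx3-CKO 1 (0.127), control 1 (0.137), control 2 (0.111) or control 3 (0.114).

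Col5a1, which regulates the diameter of type I fibrils, had 11.3, 13.9 and 10.2 CPM in Zfhx3-CKO 1, 2 and 3, against 6.81, 9.65 and 7.66 CPM in control 1, 2 and 3. No libraries overlapped, and the log2 fold change of 0.55 ± 0.18 did not pass (adjusted p = 0.0985). Its partner chain Col5a2 had 41.3, 52.9 and 47.4 CPM in Zfhx3-CKO 1, 2 and 3, against 39.5, 45.4 and 44.7 CPM in control 1, 2 and 3, with overlapping groups (log2 fold change 0.13 ± 0.11, adjusted p = 0.495). The cartilage collagen Col2a1 had 16.9, 34.2 and 18.6 CPM in Zfhx3-CKO 1, 2 and 3, against 15.4, 14.9 and 44.1 CPM in control 1, 2 and 3. It was high in 1 library of each group, with a log2 fold change of -0.10 ± 0.44 (adjusted p = 0.912). The other 7 fibrillar genes had log2 fold changes of -0.22 (Col11a2) to 1.85 (Col1a1), none called.

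The connective tissue chains were high in a single library. Col1a1, which with Col1a2 makes type I collagen, had 0.882, 13.5 and 1.79 CPM in Zfhx3-CKO 1, 2 and 3, against 1.20, 1.45 and 1.80 CPM in control 1, 2 and 3. Col1a2 had 6.13, 21.4 and 7.69 CPM in Zfhx3-CKO 1, 2 and 3, against 7.89, 9.34 and 9.70 CPM in control 1, 2 and 3. Col3a1, the chain of type III collagen, had 4.02, 25.2 and 5.74 CPM in Zfhx3-CKO 1, 2 and 3, against 6.16, 6.94 and 6.53 CPM in control 1, 2 and 3. In all 3 genes Zfhx3-CKO 2 was the highest library and Zfhx3-CKO 1 the lowest, and none passed (log2 fold changes 1.85 ± 0.90, 0.39 ± 0.42 and 0.83 ± 0.60, adjusted p = 0.237, 0.612 and 0.424). These values were given because 1 library led them, which was seen in the data.

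Fibroblast markers were also uneven between libraries. The 14 listed genes of meningeal and other fibroblasts, of which 8 were tested and none called (edgeR: 3 higher and 0 lower at an unadjusted p under 0.05, DESeq2 0), summed to 134, 188 and 135 CPM in Zfhx3-CKO 1, 2 and 3, against 128, 140 and 147 CPM in control 1, 2 and 3. Igf2 was the highest of the list, with 57.3, 87.8 and 52.0 CPM in Zfhx3-CKO 1, 2 and 3, against 53.2, 57.5 and 63.7 CPM in control. Decorin (Dcn), a small proteoglycan that binds collagen fibrils, had 3.71 CPM in Zfhx3-CKO 2 and 0.0490 to 0.299 CPM in the other 5 libraries. Aldh1a2, the retinoic acid enzyme of the meninges, had 2.54 CPM in Zfhx3-CKO 2 and 0 counts in Zfhx3-CKO 1 and 3, against 0.0598, 0.631 and 0.239 CPM in control 1, 2 and 3. Of the 14 genes, 9 had their highest CPM in Zfhx3-CKO 2, 3 in Zfhx3-CKO 3 and 2 in control 3. The same count over all genes was not made. The receptor gene Pdgfra was lowest in Zfhx3-CKO 2, with 25.3, 21.0 and 30.0 CPM in Zfhx3-CKO 1, 2 and 3, against 24.0, 26.7 and 21.4 CPM in control 1, 2 and 3. None of the 14 was at 0 in every library, and the part of fibroblast RNA in the type I and III collagen values was not tested. Without Zfhx3-CKO 2, 5 of 48 collagen and laminin genes tested were called higher and 5 lower, where 5.11% and 3.61% of all genes tested in that fit were called.

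**Figure D4:**
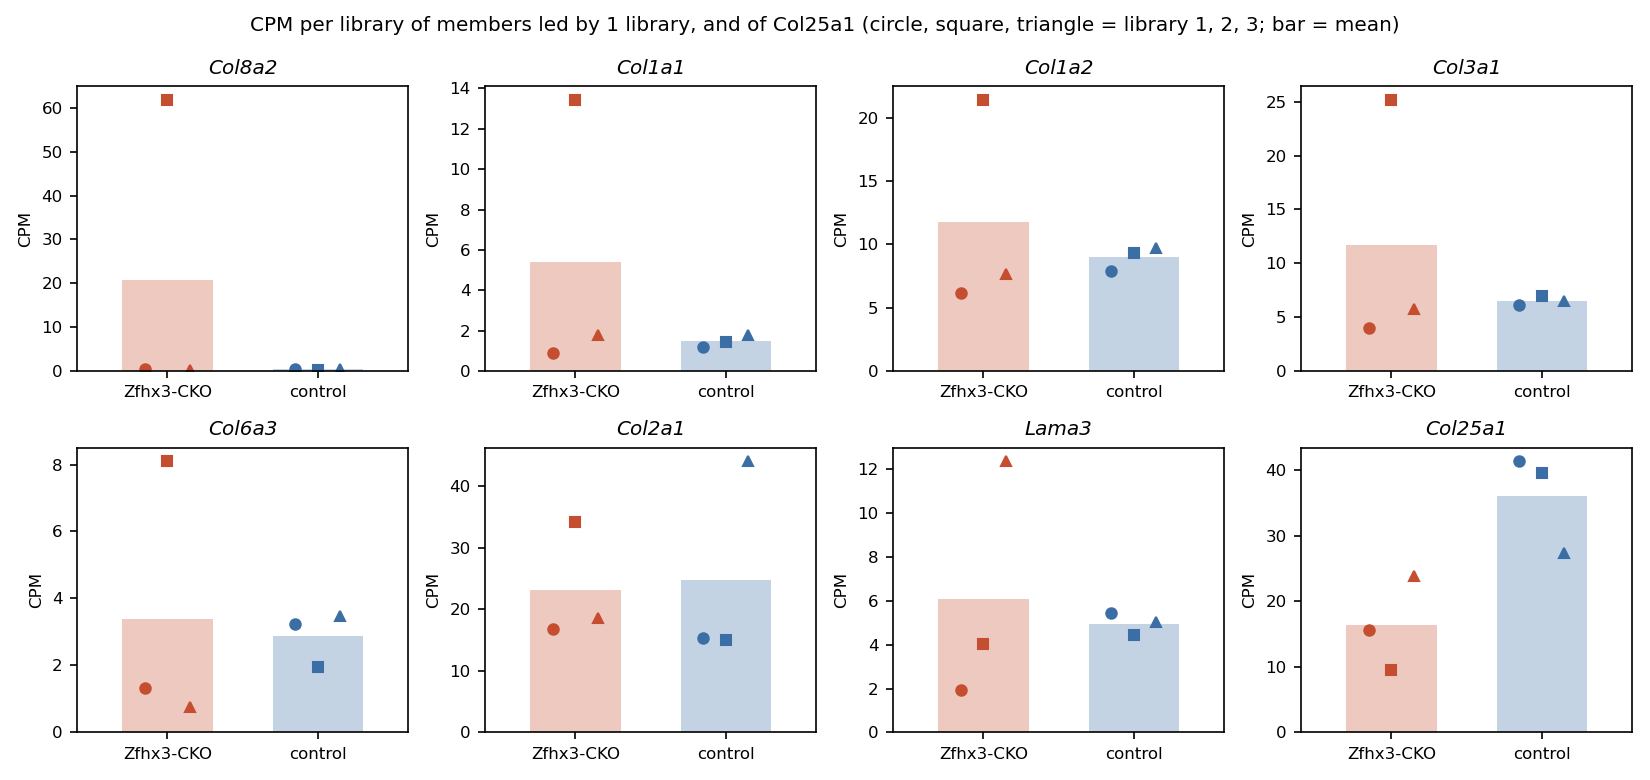
CPM per library for collagen and laminin genes led by a single library and for Col25a1, with Zfhx3-CKO left of control, group means as bars and symbols for libraries 1, 2 and 3. Col8a2, Col1a1, Col1a2, Col3a1 and Col6a3 are highest in Zfhx3-CKO 2, Lama3 in Zfhx3-CKO 3 and Col2a1 in control 3.

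The most uneven gene was Col8a2, a network-forming collagen best known from the membrane under the corneal endothelium. It had 9, 1169 and 2 counts in Zfhx3-CKO 1, 2 and 3, against 6, 4 and 9 counts in control 1, 2 and 3, that is 61.9 CPM in Zfhx3-CKO 2 and at most 0.539 CPM elsewhere. Zfhx3-CKO 2 thus held 115 times the CPM of the next library. The gene did not pass the low-count filter, which asks for expression in 3 libraries, and was not tested. Its chain partner Col8a1 showed no such excess, with 0.588, 1.54 and 0.974 CPM in Zfhx3-CKO 1, 2 and 3, against 1.55, 1.45 and 0.239 CPM in control 1, 2 and 3.

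Of the 25 other collagens, 21 were tested, 1 rose and 1 fell. Col12a1, a collagen that decorates fibrils in tendon and bone, had 14.0, 17.0 and 15.3 CPM in Zfhx3-CKO 1, 2 and 3, against 10.2, 10.5 and 9.40 CPM in control 1, 2 and 3. The groups did not overlap, and the log2 fold change was 0.62 ± 0.13 (adjusted p = 0.0255). The call was lost without Zfhx3-CKO 1 (adjusted p = 0.0556), control 1 (0.106), control 2 (0.0954) or control 3 (0.0745). The other 7 fibril-associated genes tested had no call, among them the 2 highest of them. Col9a3, a chain of type IX collagen, had 27.7, 24.6 and 39.2 CPM in Zfhx3-CKO 1, 2 and 3, against 32.1, 30.8 and 29.9 CPM in control (log2 fold change -0.02 ± 0.16, adjusted p = 0.96). Col22a1, known from tissue junctions such as that of muscle and tendon, had 55.0, 63.8 and 45.2 CPM in Zfhx3-CKO 1, 2 and 3, against 54.7, 62.3 and 57.7 CPM in control (log2 fold change -0.09 ± 0.12, adjusted p = 0.689). For both, control libraries lay inside the range of the Zfhx3-CKO libraries.

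Type VI collagen, a beaded filament whose alpha chains Col6a1 and Col6a2 join Col6a3 in the classical trimer, had 1 called gene, Col6a1. Col6a1 had 5.24, 7.15 and 6.92 CPM in Zfhx3-CKO 1, 2 and 3, against 14.6, 12.2 and 15.5 CPM in control 1, 2 and 3. It fell without overlap, with a log2 fold change of -1.13 ± 0.17 and the smallest adjusted p of the 48 genes tested (0.00697). Col6a2, which lies 85161 bases away on the same strand of chromosome 10 (76595762 to 76623630, with Col6a1 at 76708792 to 76726168), had 1.27, 3.97 and 2.10 CPM in Zfhx3-CKO 1, 2 and 3, against 0.538, 0.757 and 1.02 CPM in control 1, 2 and 3. Its libraries did not overlap in the other direction, and the log2 fold change of 1.65 ± 0.46 did not pass (adjusted p = 0.0668). Per length, Col6a1 stood 3.42 to 7.82 times above Col6a2 within Zfhx3-CKO libraries, against 29.0 to 51.7 times within control libraries. The lowest ratio, 3.42, was that of Zfhx3-CKO 2. These ratios rest on few Col6a2 counts, 26, 75 and 41 in Zfhx3-CKO 1, 2 and 3 and 9, 12 and 17 in control 1, 2 and 3.

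Col6a3 had 1.32, 8.10 and 0.769 CPM in Zfhx3-CKO 1, 2 and 3, against 3.23, 1.96 and 3.47 CPM in control 1, 2 and 3, with Zfhx3-CKO 2 high and the other mutant libraries below every control (log2 fold change 0.22 ± 0.74, adjusted p = 0.881). Col6a4 and Col6a5, chains that can take the place of Col6a3, did not pass (log2 fold changes 0.04 and 0.33, adjusted p = 0.957 and 0.596). The Col6a1 call was lost only without control 1 (adjusted p = 0.0529), of the 6 libraries left out in turn. Col6a2 was called as higher by DESeq2 (adjusted p = 0.0236) and by edgeR without the low-count filter (0.0119). In edgeR fits with 1 library left out it had an adjusted p of 0.0539 to 0.226. With Zfhx3-CKO 2, its highest library, as the only mutant library the log2 fold change of Col6a2 was 2.35.

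Col25a1, a membrane-spanning collagen made by neurons, had 15.6, 9.59 and 23.8 CPM in Zfhx3-CKO 1, 2 and 3, against 41.4, 39.6 and 27.4 CPM in control 1, 2 and 3. The groups did not overlap, with Zfhx3-CKO 3 and control 3 closest to each other. The log2 fold change of -1.14 ± 0.30 just missed the threshold (adjusted p = 0.0534), while it passed without Zfhx3-CKO 2 (0.0436), without Zfhx3-CKO 3 (0.00549) and with DESeq2 (0.000898). It did not pass without Zfhx3-CKO 1 (0.16), control 1 (0.199), control 2 (0.181) or control 3 (0.0748). Zfhx3-CKO 1 and 3, with the high cortical neuron markers, were also higher in Col25a1 than Zfhx3-CKO 2, and the part of those cells in its level was not tested. Col23a1, another membrane-spanning collagen, had 1.72, 2.38 and 3.33 CPM in Zfhx3-CKO 1, 2 and 3, against 1.02, 1.33 and 1.26 CPM in control 1, 2 and 3. It did not overlap between groups, at a log2 fold change of 1.04 ± 0.31 that did not pass (adjusted p = 0.0758). Col18a1, a proteoglycan collagen of vascular and epithelial basement membranes that yields endostatin, had 24.6, 34.1 and 26.6 CPM in Zfhx3-CKO 1, 2 and 3, against 21.2, 27.6 and 24.1 CPM in control 1, 2 and 3, with overlap (log2 fold change 0.23 ± 0.15, adjusted p = 0.375).

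Libraries were not equal contributors to the high values. Of the 53 genes, 17 had their highest CPM in Zfhx3-CKO 2, 19 in Zfhx3-CKO 3 and 4 in Zfhx3-CKO 1, against 6, 2 and 5 in control 1, 2 and 3. How often each library was highest over all genes was not counted, so these numbers cannot be called particular to the collagen and laminin genes. For the fibrillar collagens Zfhx3-CKO 2 was highest for 6 of 11. The median deviation of the 48 genes tested from their control mean, on the log2 CPM scale, was -0.07, 0.24 and 0.19 in Zfhx3-CKO 1, 2 and 3, against 0.01, 0.03 and -0.02 in control 1, 2 and 3. For the laminins it was 0.21, 0.31 and 0.29 in Zfhx3-CKO 1, 2 and 3, against 0.05, 0.01 and -0.04 in control 1, 2 and 3, so the laminins were the class above control in all 3 mutant libraries.

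The summed level of endothelial markers was also above control in all 3 mutant libraries. The 18 endothelial markers, all tested and none called (edgeR: 6 higher and 0 lower at an unadjusted p under 0.05, DESeq2 2 higher), summed to 409, 425 and 485 CPM in Zfhx3-CKO 1, 2 and 3, against 366, 367 and 368 CPM in control 1, 2 and 3, without overlap, and had a median log2 fold change of 0.25. Of the 18 genes, 6 were above control in every Zfhx3-CKO library and 12 overlapped. Of all genes tested, 15.5% lay above control in this way and 13.5% were higher at an unadjusted p under 0.05 by edgeR. The fitted difference was negative for Esam (-0.07), Slco1c1 (-0.09) and Ramp2 (-0.17). The most abundant of them, the glucose transporter Slc2a1, had 61.3, 58.7 and 92.4 CPM in Zfhx3-CKO 1, 2 and 3, against 43.8, 48.8 and 54.5 CPM in control, and the junction protein Pecam1 had 20.3, 23.9 and 26.9 CPM in Zfhx3-CKO 1, 2 and 3, against 18.4, 16.8 and 17.7 CPM in control. The 13 pericyte and smooth muscle markers (12 tested, none called by edgeR, 1 higher and 0 lower at an unadjusted p under 0.05, DESeq2 0) summed to 314, 346 and 354 CPM in Zfhx3-CKO, against 313, 318 and 319.9 CPM in control, and the 11 radial glia markers to 2768, 2860 and 2126 CPM in Zfhx3-CKO, against 2254, 2177 and 2653 CPM in control. None of the endothelial or radial glia markers was at 0 in any library. The part of these cells in the laminin and Col4a values was not tested. Choroid plexus markers summed to 19.9 to 24.9 CPM in Zfhx3-CKO and 18.5 to 25.0 CPM in control, and microglia markers to 241 to 374 CPM in Zfhx3-CKO and 323 to 479 CPM in control. Over the 8 marker lists, 3 genes were called higher, the cortical Bhlhe22 and the LGE factors Six3 and Sp9. The 6 called lower were the microglial P2ry12 and the LGE genes Gad2, Ebf1, Isl1, Foxp1 and Bcl11b. These came from 15 LGE, 9 cortical and 9 microglial markers tested, and the other lists had none called. Of all genes tested, 3.87% were called higher and 3.49% lower.

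**Figure D5:**
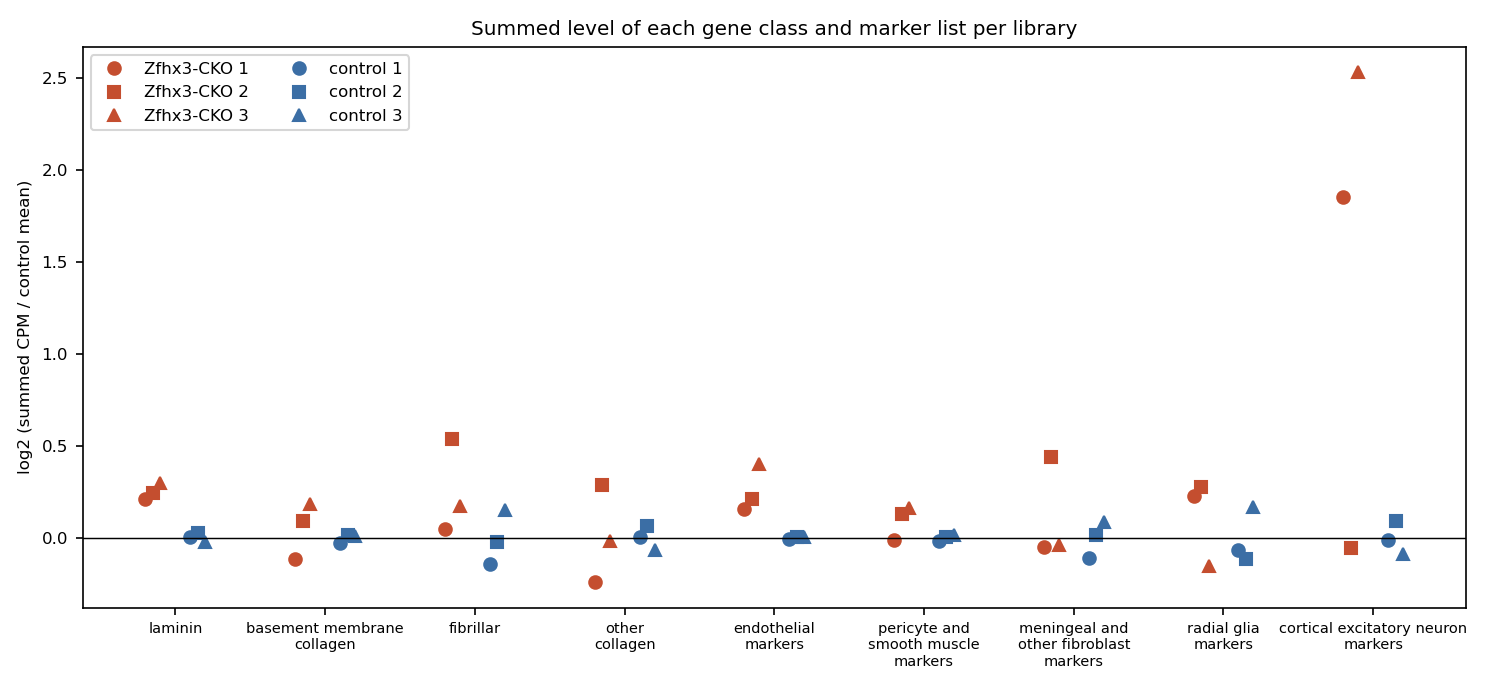
Summed CPM of each gene class and marker list in each library as log2 of its ratio to the control mean (y axis), with Zfhx3-CKO left of control and symbols for libraries 1, 2 and 3. Laminins and endothelial markers are above control in all 3 Zfhx3-CKO libraries, fibrillar collagens and fibroblast markers are highest in Zfhx3-CKO 2, and cortical markers are high in Zfhx3-CKO 1 and 3.

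Genes that make, bind, sense or cut the matrix were read from 4 lists chosen for their function. Of 106 such genes tested, 6 (5.66%) were called, all higher in Zfhx3-CKO, where 7.36% of all genes tested were called and 3.87% as higher. Of 33 basement membrane and matrix partners 4 rose and 0 fell (1 lower at an unadjusted p under 0.05, DESeq2 0), with a median log2 fold change of 0.27. They were the tenascin Tnr, a glycoprotein of neural matrix (log2 fold change 0.94 ± 0.10, adjusted p = 0.00184), the fibulin Fbln2 (0.66 ± 0.15, adjusted p = 0.0348), Pxdn, the peroxidase that crosslinks type IV collagen (0.27 ± 0.07, adjusted p = 0.0465), and Hspg2, which encodes the basement membrane proteoglycan perlecan (0.40 ± 0.10, adjusted p = 0.0495). Tnr had 67.7, 69.3 and 80.4 CPM in Zfhx3-CKO 1, 2 and 3, against 41.5, 37.5 and 34.1 CPM in control 1, 2 and 3, and the groups did not overlap. Tnr passed with each of the 6 libraries left out in turn (adjusted p 0.0011 to 0.0213). Fbln2, Pxdn and Hspg2 were all lost without Zfhx3-CKO 1 (0.11 to 0.147), control 1 (0.136 to 0.177), control 2 (0.0661 to 0.151) or control 3 (0.0588 to 0.12), Pxdn also without Zfhx3-CKO 3 (0.0561) and Hspg2 also without Zfhx3-CKO 2 (0.079). Dcn, Bgn and Lum stand both in this list and in the fibroblast list.

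Of 20 matrix-degrading genes, 2 rose and 0 fell (1 lower at an unadjusted p under 0.05, DESeq2 1). The membrane-bound collagenase Mmp14 had 115, 122 and 95.9 CPM in Zfhx3-CKO 1, 2 and 3, against 79.1, 79.4 and 86.2 CPM in control 1, 2 and 3 (log2 fold change 0.44 ± 0.10, adjusted p = 0.0308). Its relative Mmp15 had 46.3, 46.4 and 54.2 CPM in Zfhx3-CKO 1, 2 and 3, against 37.4, 36.1 and 40.2 CPM in control 1, 2 and 3 (0.37 ± 0.09, adjusted p = 0.0486). Neither overlapped between groups, and both were lost without Zfhx3-CKO 1 (0.115 and 0.1), control 1 (0.131 and 0.179), control 2 (0.129 and 0.184) or control 3 (0.0604 and 0.0797).

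None of the 28 collagen processing genes tested was called by edgeR (8 higher and 0 lower at an unadjusted p under 0.05, DESeq2 1 higher). The smallest p belonged to Serpinh1, the collagen chaperone of the endoplasmic reticulum, with 131, 125 and 108 CPM in Zfhx3-CKO 1, 2 and 3, against 80.2, 73.2 and 106.6 CPM in control (log2 fold change 0.49 ± 0.14, adjusted p = 0.0691), then to the hydroxylase family member P3h3 (0.27, adjusted p = 0.091) and the procollagen-processing protease relative Tll2 (0.54, adjusted p = 0.102). None of the 25 collagen and laminin receptors was called (4 higher and 1 lower at an unadjusted p under 0.05, DESeq2 0). Their smallest p were those of the laminin-binding integrin chain Itga6 (log2 fold change 0.32, adjusted p = 0.0994), the integrin chain Itgb8 (-0.31, adjusted p = 0.134) and the collagen receptor kinase Ddr1 (0.19, adjusted p = 0.163). Median log2 fold changes were 0.14 for the processing genes, 0.11 for the receptors and -0.03 for the degrading genes.

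The authors' deposited table, whose column names do not say which test was used, gave an adjusted p under 0.05 for 11 of the 53 genes, 7 higher and 4 lower in Zfhx3-CKO. It gave no adjusted p for 13 of the 53. The share of all its genes under 0.05 was not computed, so these 11 have no background beside them. The authors' deposited table marked none of the 53 as significant, among 122 genes so marked, and gave no p for Col1a1, Col2a1 and Col8a2. In the authors' deposited table the log2 fold change was -0.99 for Col4a4 (adjusted p = 2.07e-06) and -0.94 for Col6a1 (adjusted p = 7.32e-07).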

How the data were processed

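RNA-seq of LGE was taken up after alignment and counting. Libraries were made with a TruSeq RNA kit, per the labels' protocols, and kits of that type leave strand unmarked. Tools named in the submitters' processing notes are HISAT2, StringTie, edgeR and bcl2fastq 2.17.1.14, and the builds named there are mm10 and GRCm38.p4. For the annotation release, the version was not given in the sources used here. The deposited counts are whole, unnormalised numbers per gene, per the file headers. The authors scaled the deposited FPKM values by gene length and depth, as the header names imply. Log2 fold changes with raw and adjusted p-values from the authors are in the same deposited table. Its sample columns were matched by group word and replicate number, and counts and FPKM of all 3726 genes of a shorter table with full titles were identical.

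Counts were tested with edgeR's quasi-likelihood test (R 4.3.3, edgeR 4.0.16, limma 3.58.1) with TMM factors (0.992 to 1.01), filterByExpr (minimum count 10; 16551 genes kept, 13108 left out), group as the only term, and Benjamini-Hochberg adjustment over all genes tested at 0.05. CPM were computed on TMM-adjusted library sizes; the SE of a log2 fold change comes from the F statistic. Library totals of 15938590 to 20311799 limit the precision of genes with few counts. Deviations from the control mean used log2(CPM + 0.1). All pairs of libraries within a group differed by more than sampling noise (chi-square per gene 3.35 to 29.3, with 1 the value under sampling noise alone), so each was kept as a replicate. Gene classes, 4 lists of matrix partners and 8 lists of cell type markers, and the members themselves, were chosen with earlier results of these data known. Values in every library are given for members with an unadjusted p under 0.05, for the 3 highest in FPKM of each class and, chosen after their values were seen, for those led by 1 library. For 1 gene counted among the members, results are not reported here by name or value. Of partner lists, called genes or else the 3 smallest p are named.

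Alternatives were DESeq2 1.42.0, RLE factors, library totals only, no filter, a filter of 5 CPM in 3 libraries, a replicate block, each library left out, Zfhx3-CKO 2 as the only mutant library, limma-trend on log2(FPKM + 1) or log2(FPKM + 0.1) with a minimum of 1 FPKM in 3 libraries, and other membership rules. The tests were tried on simulated counts. Promoter windows are RefSeq's on GRCm38.p6; gene coordinates are those of the deposited table.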

Additional observations from a re-analysis of the deposited data

How the results depend on the processing

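Over the whole table, 640 genes higher and 578 lower became 1014 higher with DESeq2, 1075 higher with no low-count filter, and 156 to 1082 higher and 131 to 1014 lower with 1 library left out. Among collagen and laminin genes, 4 higher and 3 lower became 7 higher with DESeq2 and 8 higher with no filter. Limma-trend on log2(FPKM + 1) and on log2(FPKM + 0.1) tested only 23 of these genes and called 1 higher and 1 lower. Col12a1, Col4a4 and Lama2 fell under its FPKM filter and were not tested. With limma-trend Lamb2 and Col6a1 kept the call, and Col11a1 lost it (adjusted p = 0.0819 and 0.0827). With 1 library left out, 0 to 5 were called higher and 0 to 5 lower. Of the fits with 1 library left out, none was called without control 1 and most without Zfhx3-CKO 2. Among the matrix partners, 6 higher and 0 lower became 10 higher and 1 lower with no filter and 1 lower with DESeq2. They became 1 higher with limma-trend under either pseudocount, and 1 to 11 higher and 0 to 1 lower with 1 library left out.

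Same-numbered deviations from the group means correlated at -0.0348, -0.0811 and -0.251, and unlike-numbered ones at -0.165 to 0.213. No pairing by replicate number was seen. Deviations from a group mean are tied to each other, so these values cannot exclude a pairing. With the replicate block, the whole table gave 176 higher and 136 lower, the collagen and laminin genes 0 higher (10 at an unadjusted p under 0.05) and 2 lower, and the partners 1 higher.

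The median log2 fold change of the collagen and laminin genes stayed between 0.08 and 0.25. Of 328 gene-by-setting values over 23 named genes, 268 kept direction and side of the threshold, 32 lost the call, 14 gained it and 14 reversed. Most of the 23 were not called in the main fit, and only called genes could lose a call. Col11a1 kept its call in 7 of 15 alternatives, and Col12a1 and Lama2 each in 8 of 13. Col4a4 kept it in 11 of 13, Lamb2 in 11 of 15 and Col6a1 in 14 of 15. None of the reversals was a called gene. They were Col22a1 without Zfhx3-CKO 3 (0.03) or without Zfhx3-CKO 1 and 3 (0.13), Col4a1 without Zfhx3-CKO 3 (-0.03), Col4a5 without Zfhx3-CKO 3 (0.02) or without Zfhx3-CKO 1 and 3 (0.08), Col9a3 without Zfhx3-CKO 1 (0.05), Zfhx3-CKO 2 (0.12) or control 1 (0.01), and Col2a1 with the block (0.02), on log2(FPKM + 0.1) (0.02) and without Zfhx3-CKO 1 (0.09), Zfhx3-CKO 3 (0.04), control 3 (0.61) or Zfhx3-CKO 1 and 3 (0.46). With 1 library left out, these 5 genes ranged from -0.21 to 0.03 (Col22a1), -0.03 to 0.16 (Col4a1), -0.14 to 0.02 (Col4a5), -0.24 to 0.12 (Col9a3) and -0.49 to 0.61 (Col2a1). The cause was not tested. With 1 mutant library, that library was assumed to vary as the controls do. Col4a3, at 8 to 32 counts, and Col6a2, at 9 to 75 counts, are limited by depth.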

Other observations

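A scan of all 29659 genes, chosen after Col8a2 was seen, asked for genes with at least 5 CPM in 1 library and over 5 times the highest other library, with 0.5 CPM as a floor. It found 8 genes, of which 2, 3 and 2 were in Zfhx3-CKO 1, 2 and 3 and 0, 0 and 1 in control 1, 2 and 3. Of the 3 in Zfhx3-CKO 2, Col8a2 (61.9 CPM, at most 0.539 elsewhere) and Col1a1 (13.5 CPM, at most 1.80 elsewhere) were collagens. The other five included the ribosomal protein gene Rpl29 (96.8 CPM in Zfhx3-CKO 3, at most 6.37 elsewhere) and the choroid plexus transthyretin gene Ttr (5.09 CPM in control 3, at most 0.530 elsewhere).

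Besides the head-to-head type IV pairs, other collagen or laminin genes were neighbours in the deposited coordinates. They include Col3a1 and Col5a2, which lie tail to tail on chromosome 1 with 24614 bases between them, and Col9a1 and Col19a1 with 9205 bases between them. Of the 53 genes, 17 overlapped another gene of the table in position, and 0 of these were among the 7 called. Some overlaps were with a gene on the opposite strand, where a kit without strand information cannot tell the reads apart. Others were with a gene on the same strand.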
